A study of Mus musculus with 10 samples.

Results

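A set of 9 genes that encode cofactors of MLL fusion proteins was examined in CUT&RUN maps of IKZF2, also called Helios, which binds DNA through zinc fingers like the other Ikaros proteins. The genes were Men1, Kmt2a, Psip1, Dot1l, Mllt3, Mllt1, Aff1, Aff4 and Jmjd1c, chosen by name among 21887 mouse protein-coding genes. Every deposited region in the span of one of these genes or within 10 kb of either gene end was taken, which gave 88 of 151133 regions (mm10). In CUT&RUN an antibody brings a nuclease to the chromatin that holds its target, and the fragments cut free are sequenced. All samples were RN2 cells, a mouse leukaemia on the C57BL/6 background driven by an MLL-AF9 fusion together with mutant NRAS. All cells had also been transduced with a retrovirus for murine IKZF2 and a red fluorescent protein, sorted and grown for 2 weeks, so the signal belongs to cells with added IKZF2. The anti-IKZF2 antibody was used in 6 samples, made up of 3 CUT&RUN libraries with 2 technical replicates each. A control rabbit antibody was used in 4 samples, which were not analysed here, so no antibody background was subtracted. Technical replicate 2 was the deeper of each pair, with 1296355 to 1755015 reads in regions, and technical replicate 1 held 273896 to 326440. The assay gives no RNA levels, so the cell type was not checked against marker genes.

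MLL (KMT2A) is a histone H3 lysine 4 methyltransferase that acts at promoters. Menin, the product of Men1, binds its amino-terminal end and couples it to the chromatin reader LEDGF, the product of Psip1. In MLL leukaemias this end of the protein is fused to partners such as AF9 (Mllt3), ENL (Mllt1) or AF4 (Aff1). The partners bring in the H3 lysine 79 methyltransferase DOT1L and the AFF4-based super elongation complex, which drive transcription of genes such as those of the Hoxa cluster.

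Of the 8 genes listed in the RefSeq promoter table (GRCm38.p6, the coordinates of mm10), 5 had an annotated promoter of 300 bases that a region overlapped. The overlapping stretches are shown 5′ to 3′ on the strand of the gene, because they are the parts of these promoters that a region covered. Capitals mark the Ikaros-family core TGGGAA, searched on both strands, so that TTCCCA is the same core on the opposite strand. Deposited starts are used as the first base, since whether they count from 0 or from 1 is not stated.
Men1, chr19:6334837-6335050, + strand, whole region: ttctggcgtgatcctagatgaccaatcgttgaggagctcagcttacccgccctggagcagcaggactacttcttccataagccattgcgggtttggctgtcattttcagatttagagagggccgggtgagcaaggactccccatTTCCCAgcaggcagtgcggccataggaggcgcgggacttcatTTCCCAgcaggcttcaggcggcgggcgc
Kmt2a, chr9:44881430-44881539, - strand, part of a region: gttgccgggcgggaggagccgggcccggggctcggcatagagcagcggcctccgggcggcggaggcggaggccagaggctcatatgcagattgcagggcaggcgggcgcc
Dot1l, chr10:80754953-80755192, + strand, part of a region: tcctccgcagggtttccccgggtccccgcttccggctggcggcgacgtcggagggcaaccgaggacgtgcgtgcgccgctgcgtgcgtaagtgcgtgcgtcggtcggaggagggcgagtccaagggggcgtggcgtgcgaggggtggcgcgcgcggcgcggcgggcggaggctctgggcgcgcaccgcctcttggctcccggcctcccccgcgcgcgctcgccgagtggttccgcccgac
Mllt1, chr17:56935409-56935581, - strand, whole region: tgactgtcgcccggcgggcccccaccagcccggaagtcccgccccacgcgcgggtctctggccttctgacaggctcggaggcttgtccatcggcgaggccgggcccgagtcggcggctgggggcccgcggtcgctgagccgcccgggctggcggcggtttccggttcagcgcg
Jmjd1c, chr10:67185723-67185799, + strand, part of a region: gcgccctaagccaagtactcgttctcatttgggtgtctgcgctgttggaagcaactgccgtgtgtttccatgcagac
The Men1 stretch held the core at 2 places, 6334981 to 6334986 and 6335023 to 6335028. Both lay within the same run of 15 letters, catTTCCCAgcaggc, and their starts were 42 bp apart. Of 3 annotated Men1 starts, the most upstream (6334979) lay next to the first match. The other 4 stretches held no match, and neither did any full promoter of the other 7 genes in the table. Of all 32817 promoters of 300 bases 25.6% held at least 1 match and 3.79% held 2 or more. Promoters overlapped by a region of the top 10% held a match in 24.2% of 3527 cases, against 26.0% of the 26738 promoters that no region overlapped. The stretches of Dot1l, Mllt1 and Kmt2a consisted of G and C for 77.9%, 77.5% and 76.4% of their bases. Those of Men1 and Jmjd1c did so for 58.4% and 54.5%, and the median was 61.0% over promoters overlapped by a region of the top 10% and 52.7% over all promoters.

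The cofactor genes carried regions of ordinary strength, with a few strong ones. A region's signal is its CPM (its read count scaled to the library's total reads in regions) per kb of its width, averaged over 3 libraries after technical replicates were summed. The median signal was 48.1 over the 88 regions and 49.5 over all 151133 regions. Of the 88 regions 13 (14.8%) were in the top 10% of all regions, at a signal of at least 64.0, against a background of 10%. In the top 10% of each library separately there were 2 of them, against 0.645% of all regions. In none of the 3 libraries did 67 of them reach it (76.1%), against 72.8% of all regions. Both regions that reached it in every library lay at gene starts or ends, one at Men1 and the other beyond Aff4 at the ends of Uqcrq and Gdf9.

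Regions at the gene ends had a larger median width and read count than those in gene bodies, at nearly the same median signal. Within 1 kb of a gene end lay 10 regions with a median width of 177.5 bp and 52.5 reads over the 3 libraries. In the gene bodies, over 1 kb from both ends, lay 63 regions with a median width of 108 bp and 28 reads. The median signal was 47.8 at the ends and 47.4 in the bodies, and 51.9 in the 15 flanking regions. The widest region (550 bp) lay upstream of Dot1l. Regions of 200 bp or more made up 13 of the 88 (14.8%), against 8.86% of all regions. A region just inside the 10 kb window (9811 bp beyond Aff4) had a signal of 48.0 ± 20.9, and the nearest one outside any window (10590 bp from Dot1l) had 69.9 ± 24.8 (SD, n = 3 libraries).

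**Figure D1:**
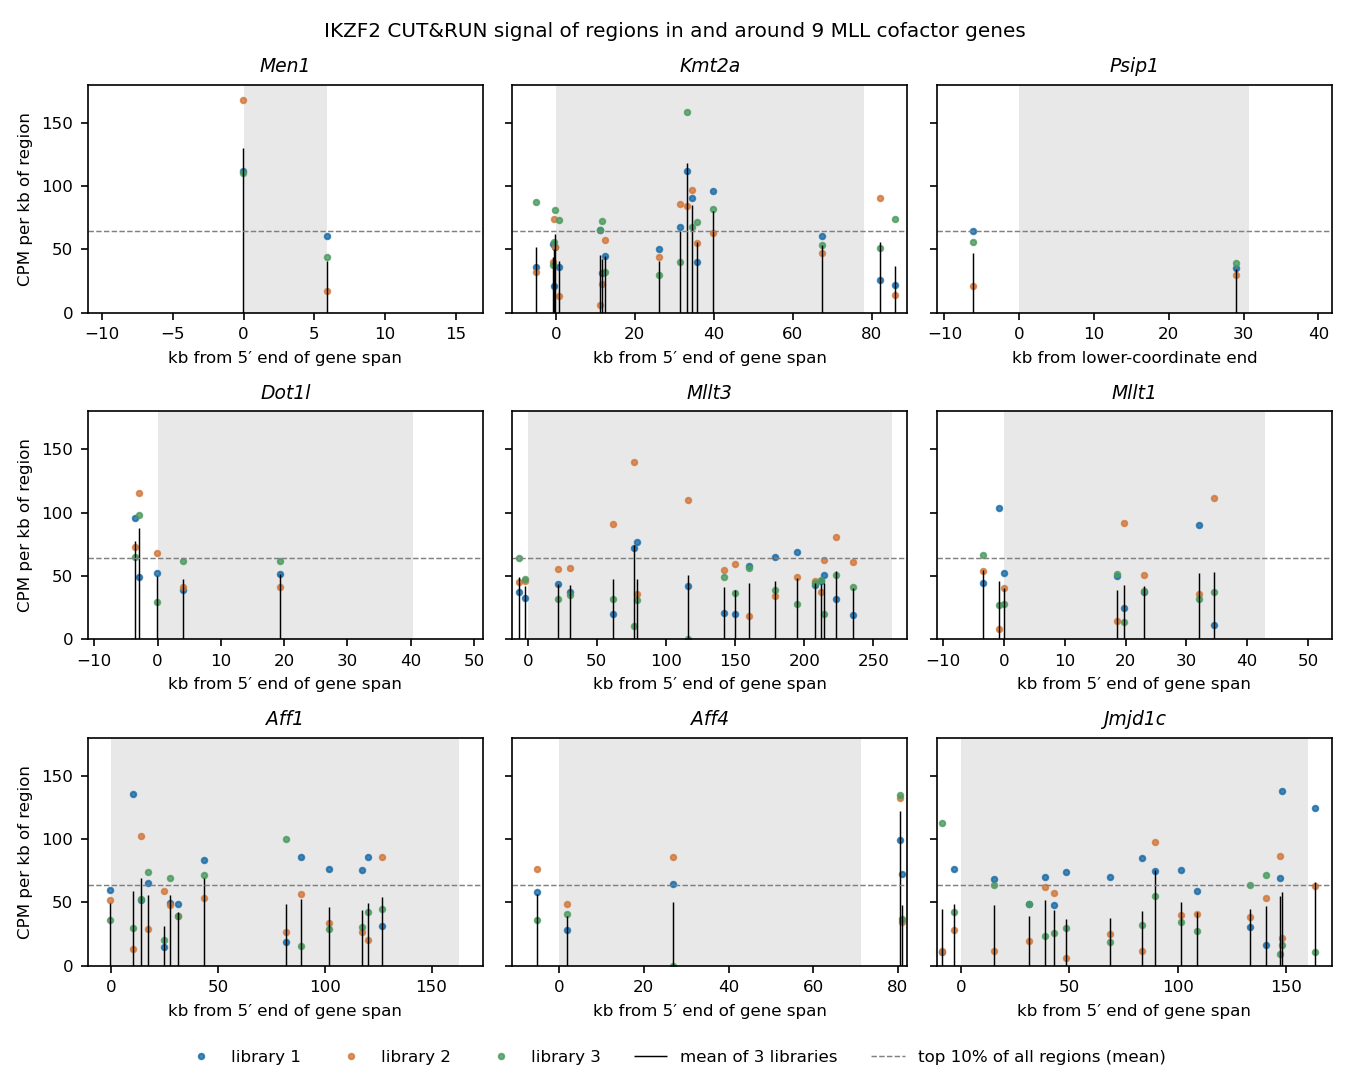
Signal of each region (CPM per kb of region, y axis) against its distance in kb from the 5′ end of the gene span (from the lower-coordinate end for Psip1, x axis) for the 9 genes. Points are the 3 libraries, vertical lines their mean, grey the gene span and the dashed line the lower bound of the top 10% of all regions (64.0); Men1 has 1 tall line at its start, Kmt2a a group of them inside the gene, and most lines of Mllt3 and Jmjd1c stay under the dashed line.

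Men1 had the strongest region of the 88, and it lay on the annotated start of the gene. Men1 spans 5.916 kb on chromosome 19 (6334979 to 6340894), and its window held 2 regions, both at gene ends. The start region (6334837 to 6335050) held 36, 54 and 43 reads in technical replicate 2 of libraries 1, 2 and 3, against 4, 2 and 6 reads in technical replicate 1. Its signal was 112, 167 and 111 in the 3 libraries (mean 130 ± 32.4, SD, n = 3), which placed it in the top 0.401% of all regions. All 3 libraries were above the top 10% bound for regions, and library 2 was the highest. Its mean signal was 144 in technical replicate 2 and 61.1 in technical replicate 1. The other region (6340758 to 6341054) overlapped the 3′ end of Men1 and lay within 1 kb of an end of Map4k2, the gene of a kinase. It stood at 60.5, 17.2 and 43.8 (mean 40.5 ± 21.8), below the median of all regions.

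A gene's end signal is the highest region signal within 1 kb of either end of its span. Of the 9 genes 1, Men1, was in the top 10% of genes with such a region (at least 107.8), against 4.24% of all protein-coding genes. Ranked within libraries, Men1 was there in libraries 2 and 3 and just below in library 1, where it stood at 112 and the bound was 114. In the top 10% of each library there was thus 0 of the 9, against 0.809% of all genes. A region within 1 kb of an end was present for 5 of the 9 genes, against 42.4% of all genes. The median over genes with such a region was 61.0, so Kmt2a (61.9 ± 16.9) stood at the middle, at percentile 52.0. Dot1l (50.1 ± 19.6), Aff1 (49.5 ± 12.1) and Mllt1 (46.2 ± 50.8) stood lower, at percentiles 25.2, 23.5 and 15.1. The library ranges of these 4 genes overlapped, and every library of Men1 lay above every library of the other 4. Mllt3, Psip1, Aff4 and Jmjd1c had no region within 1 kb of an end.

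Kmt2a, which encodes MLL itself, combined a group of regions at its start with a group of mostly narrow ones inside the gene. The strongest inside stood higher per kb of region but not in reads, with 59 reads in 91 bp. At the start the strongest held 62 reads in 183 bp. It spans 77.998 kb on the minus strand of chromosome 9 (44803355 to 44881352), and its window held 17 regions. At its start lay 4 of them, between 44880420 and 44882312, with 23 to 62 reads each. The strongest of these 4 (44881430 to 44881613, 141 bp upstream of the annotated start) held 14, 13 and 29 reads in the deeper replicate 2, and 2, 2 and 2 in the shallower replicate 1. Its signal was 52.2, 52.2 and 81.4 in libraries 1, 2 and 3, highest in library 3. None of the 4 was in the top 10% of regions.

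Inside Kmt2a, 5 regions lay between 44841557 and 44849945, some 31.5 to 39.7 kb from the 5′ end, and 4 of them were in the top 10% of all regions. The strongest (44848102 to 44848193) was 91 bp wide and stood at 112, 84.0 and 158 in the 3 libraries (mean 118 ± 37.6), in the top 0.631% of regions. It rested on 59 reads, with 15, 12 and 26 in the deeper replicate 2, and 2, 0 and 4 in the shallower replicate 1. Library 2 was the lowest, and its technical replicate 1 held no read there. Neighbouring regions stood at 85.2 ± 15.3, 80.0 ± 16.7, 64.2 ± 23.1 and 55.4 ± 15.6. The top 10% call used the mean over libraries. Ranked within libraries, the strongest region and the one at 85.2 were in the top 10% in 2 libraries each. The one at 80.0 was there in 1 library and the one at 64.2 in 0. Whether these positions are exonic or intronic was not analysed here.

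Psip1, the gene of LEDGF, had the fewest reads in its window of the 9 genes. Its span of 30.784 kb on chromosome 4 (83455680 to 83486463) had no region within 1 kb of an end, and its window held 2 regions with 63 reads in all. The region inside the gene (83484524 to 83484695) held 10, 6 and 8 reads in the deeper replicate 2, and 0, 2 and 6 in the shallower replicate 1. At 34.9, 29.8 and 39.3 (mean 34.7 ± 4.77) it was weaker than 98.8% of all regions. The other one, 6095 bp outside the span, stood at 47.3 ± 23.0 and was nearer to Snapc3.

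Dot1l, the gene of the H3 lysine 79 methyltransferase, had its stronger signal upstream of the gene rather than at the start. It spans 40.361 kb on chromosome 10 (80755101 to 80795461) with 5 regions in its window. A region of 182 bp (80752098 to 80752280), 2821 bp upstream of the span, stood at 49.2, 115 and 97.7 in the 3 libraries (mean 87.4 ± 34.3). It held 13, 33 and 37 reads in the deeper replicate 2, and 2, 0 and 0 in the shallower replicate 1, so that it was nearly empty in the shallow samples. The widest region of the 88 (550 bp, 80751292 to 80751842), 3259 bp upstream, held 64, 50 and 60 reads in the deeper replicate 2, and 24, 13 and 14 in the shallower replicate 1. With 225 reads it held more than any other of the 88, and its signal was 95.5, 72.9 and 64.6 (mean 77.7 ± 16.0). Both were in the top 10% of regions by mean signal. Ranked within libraries, the 550 bp region was there in 1 library and the 182 bp region in 2. The region at the start (80754931 to 80755192) held 23, 26 and 14 reads in the deeper replicate 2, and 0, 2 and 2 in the shallower replicate 1. It stood at 52.6, 68.3 and 29.5 (mean 50.1 ± 19.6), near the median of all regions, and overlapped the first bases of the span. The 550 bp region stood above the start region in all 3 libraries, but the 182 bp region stood below the start region in library 1.

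Mllt3 encodes AF9, the fusion partner in these cells, and its homologue Mllt1 encodes ENL, a reader of acylated histones. Mllt3 is the longest of the 9 genes (263.483 kb on chromosome 4, 87769925 to 88033407), and it had 16 body regions and 2 flanking ones, with none at an end. The body regions rested on 20 to 43 reads each. Its strongest region (87956770 to 87956861) stood at 72.2, 140 and 10.6 in the 3 libraries (mean 74.2 ± 64.7) and was thus carried by library 2. In a region at 87917157 to 87917314, library 3 held no read, while library 2 stood at 110 and library 1 at 41.8. Mllt1 spans 42.902 kb on chromosome 17 (56892608 to 56935509) with 8 regions, none in the top 10%. Its strongest region (56938818 to 56938912), 3309 bp upstream of the span, stood at 44.5, 54.2 and 66.4 in the 3 libraries (mean 55.0 ± 11.0) on 28 reads. The region next to its annotated start (56935409 to 56935581) held 12, 9 and 6 reads in the deeper replicate 2, and 3, 2 and 4 in the shallower replicate 1, at a signal of 40.2 ± 12.1. A region 780 bp upstream of the span (56936289 to 56936450) stood at 104 in library 1, 7.91 in library 2 and 26.9 in library 3 (mean 46.2 ± 50.8). It held 20, 0 and 2 reads in the deeper replicate 2, and 8, 2 and 7 in the shallower replicate 1.

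The AFF genes encode scaffolds of the super elongation complex. Aff1 spans 162.961 kb on chromosome 5 (103692362 to 103855322) and had 14 regions, 13 of them in the body. The strongest (103735842 to 103735949) stood at 83.7, 53.6 and 71.8 (mean 69.7 ± 15.2) on 40 reads. The region nearest to its 5′ end (103691660 to 103691819) stood at 60.1, 52.1 and 36.3 (mean 49.5 ± 12.1). The annotated starts of the promoter table lie 62343 bp or more from that region, inside the span, and no region lay within 1 kb of them. Aff4 spans 71.191 kb on chromosome 11 (53350640 to 53421830) and had only 2 body regions, at 39.4 ± 10.2 and 50.2 ± 44.8, with none at an end. The strongest region of its window (53431066 to 53431283) lay 9236 bp beyond the gene, within 1 kb of the ends of Uqcrq, a respiratory chain gene, and Gdf9, a growth factor gene of the oocyte. It held 32, 37 and 57 reads in the deeper replicate 2, and 4, 8 and 4 in the shallower replicate 1, at a signal of 99.0, 132 and 135 (mean 122 ± 20.0). All 3 libraries were high there, and the region was nearer to Gdf9 than to Aff4.

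Jmjd1c, the gene of a JmjC-domain protein of the H3 lysine 9 demethylase family, had its strongest region on an annotated start inside the gene. It spans 159.976 kb on chromosome 10 (67096351 to 67256326) with 17 regions, 14 of them in the body. The region at 67185723 to 67185827 overlapped the internal start at 67185750 and stood at 74.6, 98.0 and 55.4 in the 3 libraries (mean 76.0 ± 21.3). It held 6, 16 and 10 reads in the deeper replicate 2, and 7, 0 and 2 in the shallower replicate 1, and 1 of the 3 libraries placed it in the top 10%. At the other annotated start (67127088) the nearest region was 577 bp away and stood at 39.1 ± 17.0. A region 3170 bp beyond the gene was in the top 10% at 66.1 ± 57.1, with 125 in library 1, 63.0 in library 2 and 10.6 in library 3. Counting annotated starts in place of both span ends, 5 of the 8 genes in the promoter table had a region within 1 kb of a start, against 37.3% of 17492 genes. Men1 alone of the 8 was in the top 10% by that value, against 3.73% of those genes.

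**Figure D2:**
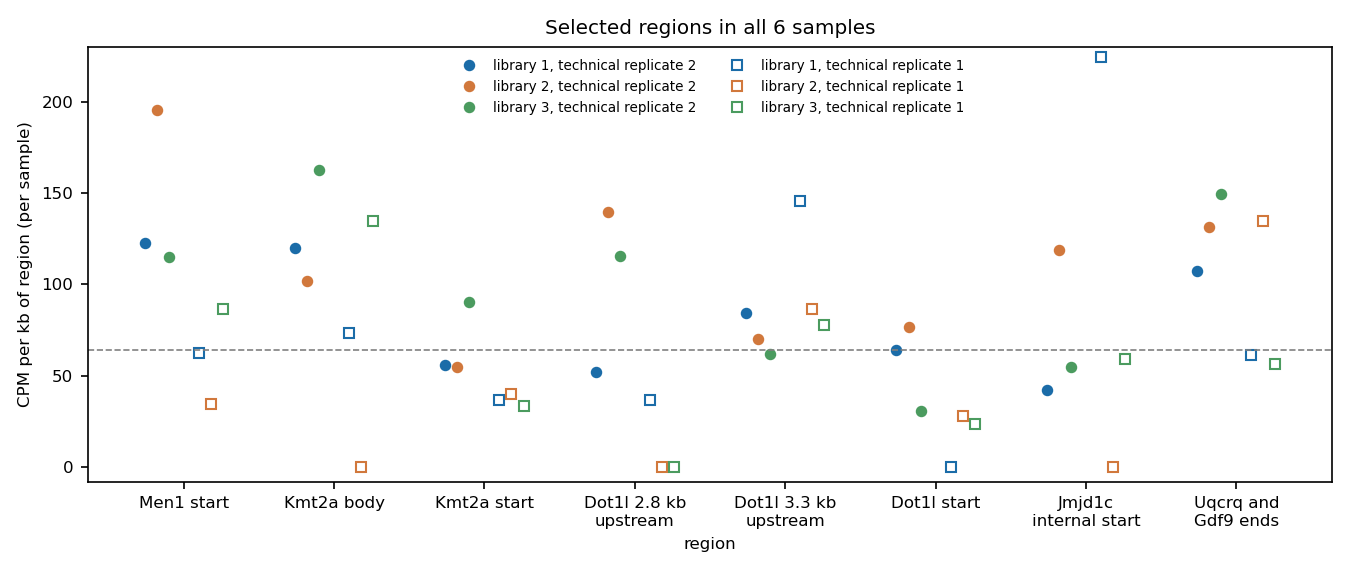
Signal per sample (CPM per kb of region, y axis) for 8 regions named in the text (x axis), with technical replicate 2 as filled circles on the left and the shallower technical replicate 1 as open squares on the right of each region, coloured by library. The dashed line is the lower bound of the top 10% of all regions by mean signal (64.0); the Men1 start, the Kmt2a body region and the region at Uqcrq and Gdf9 lie above it in all 3 samples of technical replicate 2, and several samples of technical replicate 1 are at 0.

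By density over whole gene windows, Men1, Dot1l and Kmt2a stood above the other 6 genes when all regions and both technical replicates were used. It is the summed CPM of all regions per kb of window (span and 10 kb on either side). The flanks have a fixed length, so they weigh more in short genes. The span is 5.916 kb of a 25.916 kb window in Men1 and 263.483 kb of 283.483 kb in Mllt3. Men1 stood at 1.61, 1.57 and 1.41 in the 3 libraries (mean 1.53 ± 0.108, SD, n = 3). Dot1l stood at 1.40, 1.46 and 1.23 (mean 1.36 ± 0.116) and Kmt2a at 1.17, 1.19 and 1.48 (mean 1.28 ± 0.174). These 3 overlapped each other, and all their libraries lay above all those of the next gene, Mllt1 (0.862 ± 0.178). Of the 9 genes 2, Men1 and Dot1l, were in the top 10% (at least 1.358), against 10% of all genes, and Kmt2a was at percentile 88.5. Without library 1, Men1 alone was in the top 10%, and without library 2 the 2 genes were Men1 and Kmt2a.

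Of the other 6 genes, Mllt1 was at percentile 74.2 and the others lay around or below the median of all genes, which was 0.522. Mllt1 overlapped Jmjd1c (0.575 ± 0.166), which overlapped Aff4 (0.502 ± 0.0751) and Aff1 (0.479 ± 0.0700). Aff1 in turn overlapped Mllt3 (0.360 ± 0.0925). Psip1 was lowest at 0.229 ± 0.0677, and its 3 libraries lay below those of Mllt3. This order depended on the regions and samples counted. Over the span alone, without flanks, Men1 stood at 6.71 and Kmt2a at 0.978, but Dot1l at 0.588 was below Mllt1 at 0.970, and Aff4 at 0.136 was below Psip1 at 0.193. With regions of 200 bp or wider, Kmt2a at 0.232 was below Mllt1 at 0.300 and Aff4 at 0.290. In technical replicate 1 alone, Men1 at 0.761 was below Mllt1 at 1.19, and Mllt3 at 0.322 was below Psip1 at 0.362. When each region counted for its nearest gene alone, Aff4 stood at 0.164 and Men1, Kmt2a and Dot1l were all in the top 10%.

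**Figure D3:**
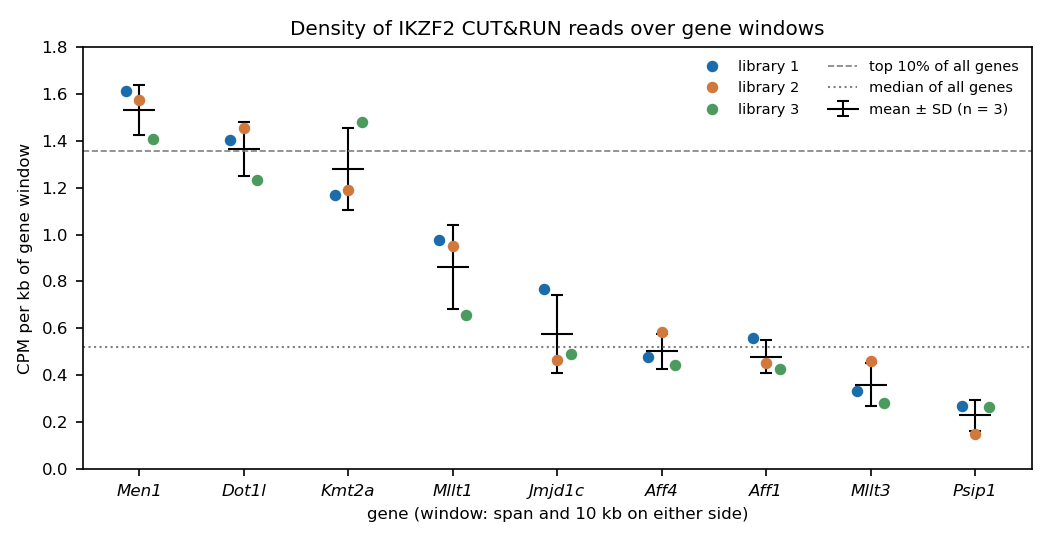
Summed CPM per kb of gene window (y axis) for the 9 genes (x axis), with coloured points for the 3 libraries and black bars for mean ± SD (n = 3). The dashed line is the lower bound of the top 10% of all protein-coding genes (1.358) and the dotted line their median (0.522); all libraries of Men1, Dot1l and Kmt2a lie above those of the other 6 genes.

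None of the 4 cofactor genes with end and body regions had more signal per kb of region at its ends in all 3 libraries. Regions of both kinds were present in 4 of the 9 genes, against 6042 of all 21887 protein-coding genes. End above body in all 3 libraries held for 0 of these 4, against 27.1% of the 6042 genes with both kinds. A count over 4 genes is too small to set apart from that share. End below body in all 3 libraries held for 1 of the 4, Kmt2a, against 3.53% of those genes. Kmt2a stood at 42.9, 47.6 and 58.3 at its ends, against 61.8, 54.3 and 65.0 in its body, a mean difference of -10.8 ± 7.04 (SD, n = 3). The exact two-sided sign-flip permutation test gave p = 0.25, the smallest that 3 libraries allow. The mean difference was 1.09 ± 30.6 for Dot1l, -1.30 ± 35.8 for Mllt1 and -1.40 ± 7.43 for Aff1, each smaller than its spread (exact permutation p = 1 for each). Over all 6042 genes the median difference was 9.60. Without library 3, Dot1l and Aff1 had more signal at their ends in both remaining libraries, as did 2556 of the 6042 genes.

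Counted per kb of the zone, all 4 genes with both kinds of region had more signal at their ends. The zone around the ends then held 8.79 ± 1.39 CPM per kb in Kmt2a, against 0.951 ± 0.0870 in its body. For Dot1l the values were 3.27 ± 1.28 at the ends and 0.277 ± 0.0640 in the body, for Mllt1 3.59 ± 2.45 and 0.848 ± 0.259, and for Aff1 1.97 ± 0.482 and 0.495 ± 0.0694. The ends were higher in every library for each of the 4, as they were for 80.1% of the 6042 genes. All of these genes were taken because they had a region at an end, which favours the ends. Psip1, Mllt3, Aff4 and Jmjd1c had no region there, so their end zones held no signal. Their bodies held 0.206, 0.334, 0.140 and 0.529 CPM per kb of the zone. A zone counts the stretches without regions in its length, which the value per kb of region leaves out. In Men1 all 210 reads of the window fell within 1 kb of an end.

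**Figure D4:**
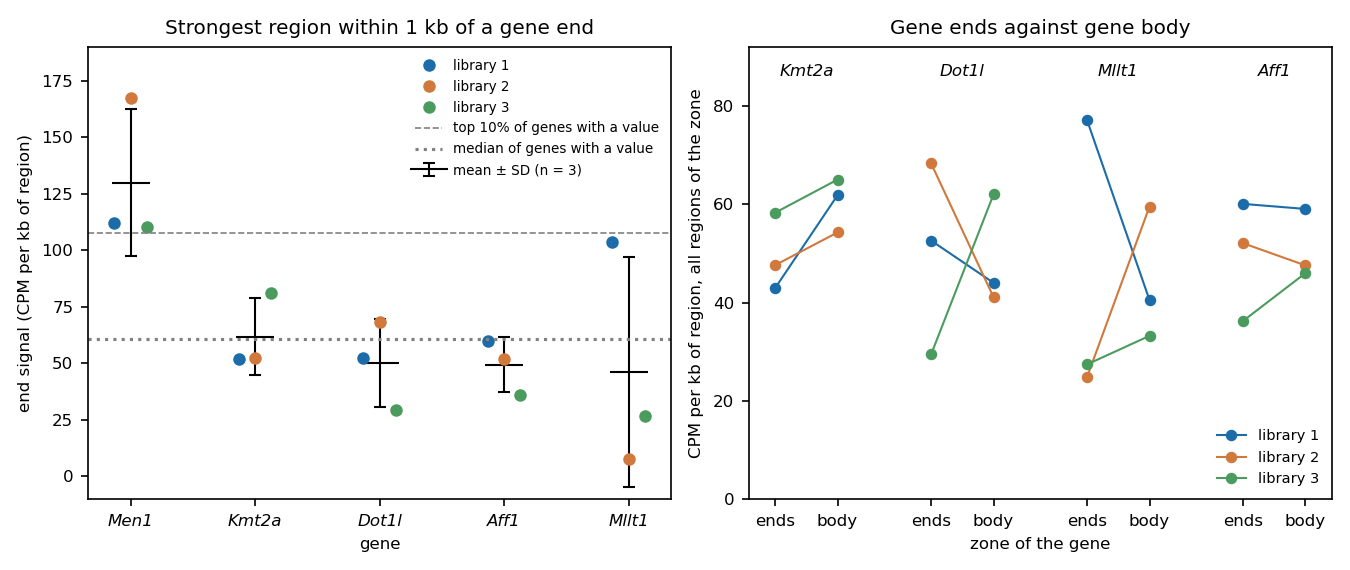
Left, signal of the strongest region within 1 kb of a gene end (CPM per kb of region, y axis) for the 5 genes that have one, as 3 library points with mean ± SD (n = 3), beside the top 10% bound (107.8, dashed) and the median (61.0, dotted) of genes with a value. Right, signal over all end regions and all body regions (CPM per kb of region) of the 4 genes with both, with lines joining the values of a library; the lines of Kmt2a run upwards to the body in all 3 libraries and those of the other genes cross or differ in direction.

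Differences between technical replicates of a library and between libraries did not pass a test at any cofactor region. Of the 88 regions 20 had enough reads for edgeR's quasi-likelihood test, against 18.2% of all regions, and it was fitted on 27452 regions in all. Between technical replicates 0 of the 20 passed an adjusted p of 0.05, against 0.259% of all tested regions. With a share this small, 0 of 20 says little about these regions. An unadjusted p under 0.05 was reached by 5 of the 20, a larger share than the 6.86% of all tested regions. DESeq2 also called 0 of the 20, with 4 at an unadjusted p under 0.05. The 5 were the start regions of Men1 and Dot1l, the 182 bp region upstream of Dot1l, a body region of Kmt2a and the region at Uqcrq and Gdf9. All 5 had positive log2 values for technical replicate 2 over technical replicate 1 under each scaling tried. The lowest adjusted p was 0.153, for the region upstream of Dot1l (log2 difference 3.51), and that of the Men1 start was 0.229 (log2 difference 1.81, against a median of 0.41 over all tested regions). With total reads in place of TMM the Men1 value was 1.44 and the median 0.05.

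Between libraries, edgeR called 0 of the 20 regions, against 0.0146% of all tested regions, so that this count also says little. An unadjusted p under 0.05 was reached by 2 of the 20, against 4.35%, and by 3 with DESeq2, which also called 0. The 2 were the Mllt3 region at 87917157, which held no read in library 3 (edgeR unadjusted p = 0.0106), and the upstream Mllt1 region with 28 reads in library 1 (edgeR unadjusted p = 0.0257). The libraries ranked the 88 regions differently. Pearson's r between libraries, over the 88 regions on the log2(CPM per kb + 1) scale, was -0.16 to -0.10, and over all regions -0.24 to -0.18. These are descriptions across regions of the same libraries that were counted on one common set.

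The wider machinery around these cofactors was read from 5 lists with 47 genes in all. A region within 1 kb of an end was present for 27 of the 47 (57.4%), against 42.4% of all genes. In the top 10% of genes by end signal were 3 (6.38%), against 4.24% of all genes. The median end signal was 50.1 over the cofactor genes with a value, 74.6 over the lists and 61.0 over all genes with a value. Of 14 genes of the COMPASS-type complexes, which methylate H3 lysine 4, 9 (64.3%) had an end region and 0 were in the top 10%. Paxip1 (90.4 ± 28.7) and Setd1a (89.5 ± 24.2) led this list, and Hcfc1 was lowest (41.5 ± 16.8). Of 15 genes of the elongation machinery 6 (40%) had an end region and 1, Eaf2 (112 ± 36.9), was in the top 10%. The P-TEFb cyclin gene Ccnt1 followed at 106 ± 11.0, and Hexim1, which encodes an inhibitor of P-TEFb, was lowest of those with a region (73.9 ± 5.67).

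In a list of 7 genes gathered around DOT1L and the YEATS proteins, 3 (42.9%) had an end region, against 42.4% of all genes. In the top 10% there was 1 of them. This was the histone acetyltransferase gene Kat7 (114 ± 18.7), followed by Yeats2 (62.2 ± 19.3), with Mllt6 lowest (60.3 ± 25.7). All 6 genes of the PAF1 complex, which binds elongating RNA polymerase II and MLL, had an end region and 0 were in the top 10%. Wdr61 (107 ± 37.8) and Paf1 (106 ± 43.3) led them and Leo1 was lowest (49.6 ± 42.0). Of 5 H3 lysine 9 demethylase genes related to Jmjd1c, 3 (60%) had an end region and 1 was in the top 10%. Kdm4a stood at 154, 120 and 162 in the 3 libraries (mean 145 ± 22.2), above Men1, from 79 reads in a region of 101 bp on chromosome 4 (118180036 to 118180137). Kdm4b followed at 96.5 ± 26.9 and Kdm3a was lowest of those with a region at 89.2 ± 46.0. The library ranges of Kdm4a and Men1 overlapped.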

How the data were processed

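The deposited tables gave raw read counts, 1 per region of a set common to the 6 anti-IKZF2 samples, with no normalization, per the file headers. Bowtie2 2.3.3.1, MACS2 and mm10 are listed without their roles, per the submitters' processing notes. The threshold for peaks, the read counter and which samples the peaks were called on were not given in the sources used here. The region names hold the words Helios, 120 and combined, without stating what was combined. Counts of 10 or more were even in 58.0 to 87.4% of cases, depending on the sample, and whether both mates of a pair were counted was not tested. The labels do not state separate cultures for the 3 libraries, so SDs and p-values may reflect technical spread only. Each titled library has 2 technical replicates, which were summed, and the pairing in the edgeR block follows the titles.

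Gene spans came from a RefSeq table of GRCm38.p6 and strands from its promoter table (250 bases before to 50 after each start), which lists 17492 of the 21887 genes. Counts were tested with edgeR 4.0.16 in R 4.3.3 (filterByExpr, TMM, glmQLFit, glmQLFTest, Benjamini-Hochberg over 27452 regions), with library and technical replicate both in the model, so that each comparison was adjusted for the other factor. DESeq2 1.42.0 served as the alternative. The edgeR fit was tested on simulated data, with changes placed only in regions with more reads than most cofactor regions held. It therefore does not show how changes at regions with few reads would be found. All else ran in Python 3.11.15 with matplotlib 3.10.9, scipy 1.17.1, numpy 2.4.6 and pandas 2.3.3. The members and lists were chosen with earlier results of these data known. All 9 genes are named, with the strongest end and window region of each, and from each list the 2 highest genes and the lowest. Other regions described were chosen after their values were seen.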

Additional observations from a re-analysis of the deposited data

How the results depend on the processing

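The count of 1 cofactor gene in the top 10% by end signal was the same in 12 other settings, but in technical replicate 1 alone the gene was Mllt1, not Men1 (61.1). Among these settings, the minimum of 10 reads and the removal of the top 0.1% of regions left every cofactor value unchanged. Their agreement therefore adds no support. Summed per kb of the end zone the count was 2, with Kmt2a added. The count of 2 genes by window density was 1 with technical replicate 1 alone (Dot1l) and over the gene span alone (Men1), it was 3 with regions given to the nearest gene only (Kmt2a added), and it was 1 to 2 without each library. The count of 0 genes with ends above bodies was 4 per kb of the zone and 0 to 2 without each library. Of all 6042 genes with both kinds of region, 4839 had this per kb of the zone and 2342 to 2556 without each library. The count of called cofactor regions was 0 in every setting, between technical replicates (0 with no replicate block) and between libraries (0 without the technical replicate term). Values based on starts alone were added after the data were seen. Of 157 values of single genes under other settings 29 moved by more than 1 SD between libraries. Some settings divide by another length, which moves values by itself. These moved 4 of 5 values summed per kb of the end zone and 4 of 9 over the gene span alone. Others, such as the minimum of 10 reads, left the values unchanged, so 29 of 157 is not a rate of robustness. The median region held 31 reads over 6 samples, which limits the ranking of single regions.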
